A study of Pseudotsuga menziesii with 26 samples.

Results

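The 3 needle libraries of lowest depth among Douglas-fir seedlings exposed to exhaust of a cerium-doped diesel fuel were set against the 4 deeper libraries of the same chamber. They were chosen by their column total in the deposited count table, as DECe libraries with under 10000000 counts (replicates 5, 10 and 15, called shallow here), and those with at least 10000000 (replicates 2, 3, 4 and 13) are called deep. They are 3 of 7 DECe libraries and 3 of 26 in the series. Replicates 5, 10 and 15 had 5942597, 6675677 and 3381425 counts, against 20559692, 60457187, 29564110 and 12404373 counts in replicates 2, 3, 4 and 13. The values nearest the boundary were 6675677 below it and 12404373 above it in DECe, and 9017951 and 12404373 over all libraries. These totals made the split, so they are given as a description with no test. All transcripts were compared, to see what the needle transcript pool lost and gained in the shallow libraries at equal exposure.

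The series holds poly(A) RNA libraries from needles of half-sibling seedlings of Douglas-fir (Pseudotsuga menziesii), 1 library per seedling, with needles that grew in 2011 and were sampled in 2012 from lateral stems. Seedlings were assigned at random to 4 atmospheres, each in 1 chamber, and were moved to other places within it mid-way. Exposure ran for 6 hours a day, 5 days a week, over 2 weeks of December, with needle growth dormant and filtered air in every chamber between exposures. DECe seedlings (n = 7) received diesel exhaust from fuel with engineered CeO2 nanoparticle catalysts. DECe Gas Phase seedlings (n = 6) received the same exhaust after HEPA filtration, DE seedlings (n = 7) received exhaust from diesel fuel, and Air Control seedlings (n = 6) received charcoal, Purafil and HEPA filtered air. All shallow and deep DECe libraries thus share chamber, exposure and season, and come from half-siblings, whose genotypes can differ. The labels give no sequencing lane, date or RNA quality that could part them. With 1 chamber per atmosphere, p-values speak only of the spread from seedling to seedling inside a chamber. The files pair transcript identifiers with no gene names, so needle markers could not be checked and no function is given for any transcript.

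A needle's messenger RNA pool is uneven: green leaf tissue carries a small set of transcripts at very high levels and a great many at low levels. Sequencing reads a sample of that pool in proportion, so a transcript's share of the counts is relative to all others, and a library in which a few transcripts take more of the counts leaves fewer counts for the rest. Depth alone changes how many rare transcripts are seen but leaves shares where they are. In bulk needles, fewer cells of a type and less RNA per cell cannot be told apart.

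Shallow libraries occurred in other chambers too. The same boundary placed 6 of 7 DE libraries (2467403 to 9017951 counts), 2 of 6 DECe Gas Phase libraries (6349478 and 6840719 counts) and 0 of 6 Air Control libraries below it. The 13 DE and DECe Gas Phase libraries played no part in choosing the DECe split, and tests of depth class were made in them. DE had 1 deep library, replicate 5, with 28990156 counts, so the DE side of every such test rests on it. Of 173882 transcripts in the table, 80100 were at 0 in every library.

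The pool in the shallow DECe libraries was far narrower than their depth alone would give. Transcripts with at least 1 count numbered 15552, 13183 and 15722 in shallow replicates 5, 10 and 15, against 37585, 62480, 49545 and 36286 in deep replicates 2, 3, 4 and 13. Brought to an equal depth of 2467403 counts, the total of the lowest library of the series, the expected numbers were 11424, 10721 and 15179 in the shallow libraries, against 30474, 34266, 33138 and 30680 in the deep libraries. At equal depth the shallow libraries averaged 12440 ± 2396 transcripts (SD, n = 3), against 32140 ± 1864 in the deep libraries (SD, n = 4), and the classes did not overlap.

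A handful of transcripts filled the shallow libraries. The 10 most abundant transcripts of each library, ranked by counts with no adjustment for length, took 93.3%, 91.3% and 80.6% of the counts in shallow replicates 5, 10 and 15. They took 39.4%, 40.4%, 40.5% and 32.9% in deep replicates 2, 3, 4 and 13, so every shallow share lay above every deep one. It took 7, 9 and 128 transcripts to reach 90% of the counts in the shallow libraries, against 4842, 5342, 4829 and 4743 in the deep ones. The effective number of transcripts, the exponential of the Shannon entropy of the shares, was 6.63, 8.77 and 30.96 in the shallow libraries, against 580.9, 539.7, 545.0 and 778.2 in the deep ones. Replicate 15, the shallow library with the fewest counts, was the least narrow of the 3, and the widest 95% Clopper-Pearson interval of a top share was ± 0.0607 percentage points, which covers counting error only.

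**Figure D1:**
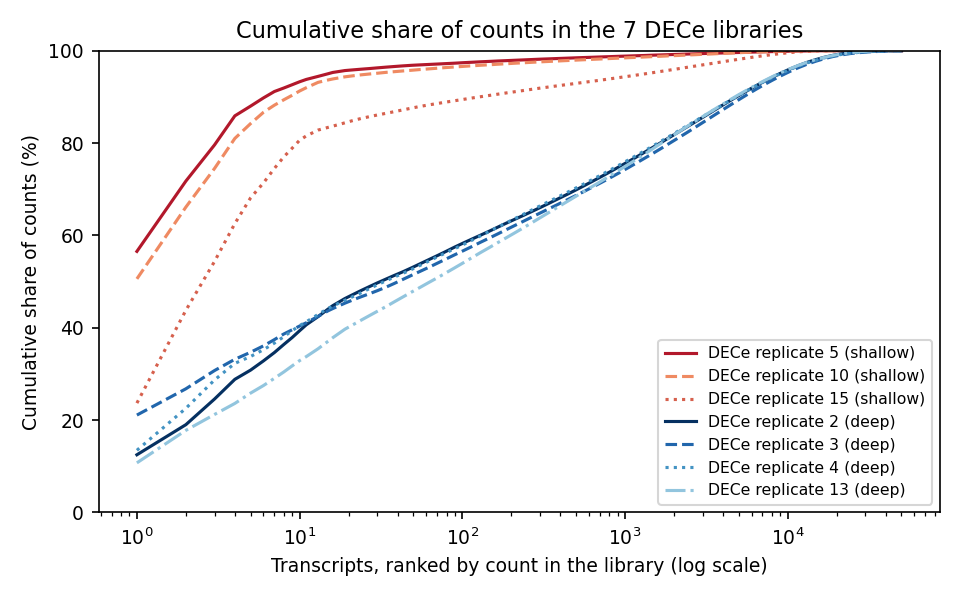
Cumulative share of counts (%) against transcripts ranked by their count in each library (log scale), with 1 line for each of the 3 shallow and 4 deep DECe libraries. Replicates 5 and 10 reach 90% of their counts within 7 and 9 transcripts and replicate 15 within 128, while the 4 deep libraries need 4743 to 5342.

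The same narrowness was found in libraries not used for the split. In shallow DE libraries the transcripts detected at equal depth ranged from 4422 to 15959, against 35046 in the deep DE library. The shallow DECe Gas Phase libraries had 19748 and 11651, against 30366 to 33978 in the deep ones. Across the 13 libraries the difference of class means within chambers, shallow minus deep, was -20530 transcripts detected at equal depth. It was -543.4 in effective number and 50.9 percentage points in the share of the 10 most abundant transcripts. Mean transcript length per count was 1562 nt higher in the shallow class. Each of the 4 differences had p = 0.00952 in a two-sided exact permutation test within chambers, which is the smallest that 105 assignments can give, and the adjusted p over the 4 measures was the same. Within chambers the classes did not overlap: the 10 most abundant transcripts took 89.2% to 95.4% of counts in the 6 shallow DE libraries against 35.8% in the deep one, and 87.5% and 91.96% in the shallow DECe Gas Phase libraries against 37.7% to 49.9% in the deep ones. Without DE replicate 5 each p was 0.0667, the smallest that the remaining assignments allow. Without DECe Gas Phase replicate 4, at 6445 nt, the difference in mean length was 720.6 nt. A narrow pool was also seen in 1 deep library: Air Control replicate 14, with 43560508 counts, had an effective number of 26.5, 79.5% of counts in its 10 most abundant transcripts and 160 transcripts for 90% of counts.

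What the shallow DECe libraries lost was spread over nearly the whole pool. Of 22677 transcripts tested in DECe, 18257 (80.5%) had a lower share in all 3 shallow libraries than in all 4 deep ones, and 392 (1.73%) had a higher one. For the 1891 transcripts with a mean of at least 50 counts per 1000000 of the library total (CPM) in the deep libraries, the median share was 29.8-fold below the deep mean in replicate 5, 21.7-fold below in replicate 10 and 5.00-fold below in replicate 15. Only 20, 23 and 28 of the 1891 lay above the deep mean in these libraries.

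Among these transcripts the loss was close to a common factor within each library. In replicates 5, 10 and 15, 81.9%, 66.7% and 77.6% of these transcripts lay within 2-fold of the library's own median ratio. Deep libraries set against the other 3 deep libraries gave 77.2% to 94.9% within 2-fold, around median ratios of 0.901 to 0.948. The spread around the median in replicates 5 and 15 thus fell inside the range of the deep libraries, and replicate 10 fell below it. For the 7929 transcripts with at least 10 CPM in the deep libraries all 3 fell below, at 63.0%, 44.5% and 57.1%, against 75.6% to 94.3% in the deep libraries.

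**Figure D2:**
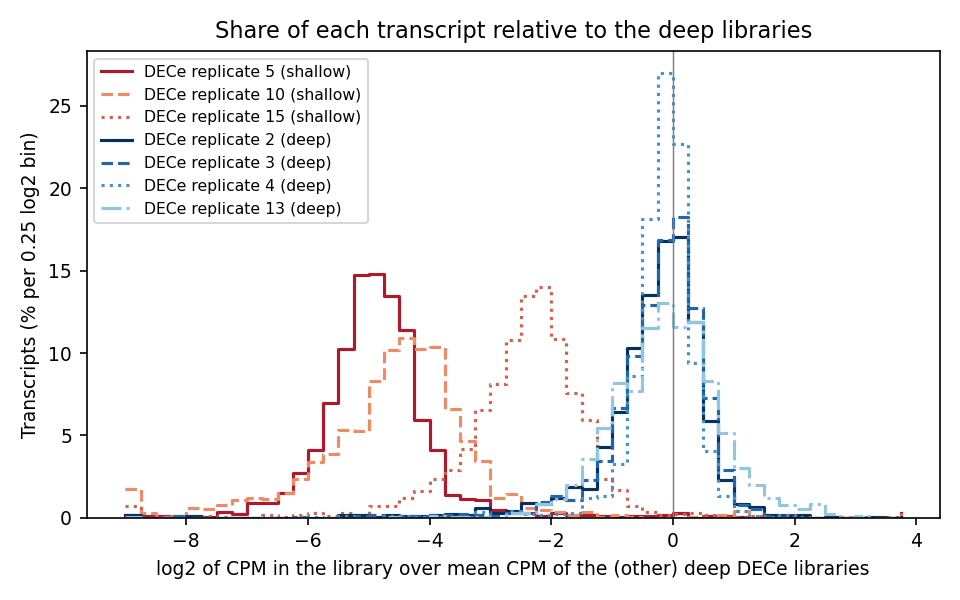
Transcripts (% per bin of 0.25 on the log2 scale) against log2 of the CPM in a library over the mean CPM of the deep DECe libraries, the library itself left out where it is deep. The distributions of shallow replicates 5, 10 and 15 lie mostly to the left of 0, with medians 29.8-, 21.7- and 5.00-fold below the deep mean, and those of the deep libraries centre near 0, with replicate 15 overlapping them in part.

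Transcripts abundant enough to check did not vanish from all 3 shallow libraries beyond that factor. From the deep shares, 11140 transcripts were expected to have at least 20 counts in each shallow library, and 356 of them (3.20%) had 0 in all 3. Once each library's median ratio was applied, 830 transcripts were still expected at 20 counts or more in each, and 0 of these were at 0 in all 3 shallow libraries. Only transcripts at high levels in the deep libraries reach that expectation. Of the 22677 transcripts tested in DECe, 4273 were at 0 in all 3 shallow libraries, and for these the check cannot tell dilution from a further loss. In the other direction, 5556 transcripts were expected at 20 counts or more in each deep library from the shallow shares, and 29 (0.522%) were at 0 in all 4. A count of 0 allows up to 3 counts, or 0.505, 0.449 and 0.887 CPM in shallow replicates 5, 10 and 15, against 0.0496 to 0.242 CPM in the deep libraries.

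How many transcripts count as lost or gained turned on the scaling. With TMM factors, edgeR's quasi-likelihood test called 537 of 22677 transcripts higher in the shallow DECe libraries (2.37% of those tested) and 60 lower (0.265%), at a Benjamini-Hochberg adjusted p under 0.05. With library totals alone it called 412 higher (1.82%) and 18559 lower (81.8%). The median log2 fold change of all tested transcripts was -0.72 under TMM, -0.41 under size factors by median of ratios and -3.77 under library totals. TMM factors were 0.130, 0.198 and 0.747 in shallow replicates 5, 10 and 15, against 2.67, 2.91, 2.62 and 2.55 in deep replicates 2, 3, 4 and 13, so the TMM calls are relative to the diluted bulk of the pool. Higher calls made up 89.95% of TMM calls, 97.0% under median of ratios and 2.17% under library totals. These counts come from the libraries the split was made on and describe how far the classes lie apart.

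Most of the higher list kept its direction on raw shares, and the lower list was short. Of the 537, 489 had a higher mean share in the shallow libraries and 48 a lower one, and in 391 all 3 shallow shares lay above all 4 deep ones. By library totals alone, 412 of them were higher at the same threshold and 2 were lower. All 60 lower transcripts had every shallow share below every deep one, as did 80.5% of all tested transcripts. Of the 60, 47 had 0 counts in all 3 shallow libraries. The number of lower calls rested on single libraries: it was 13, 10, 10 and 33 without deep replicates 2, 3, 4 and 13, and 103 and 31 without shallow replicates 5 and 10. The higher list held 855 transcripts without shallow replicate 15.

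**Figure D3:**
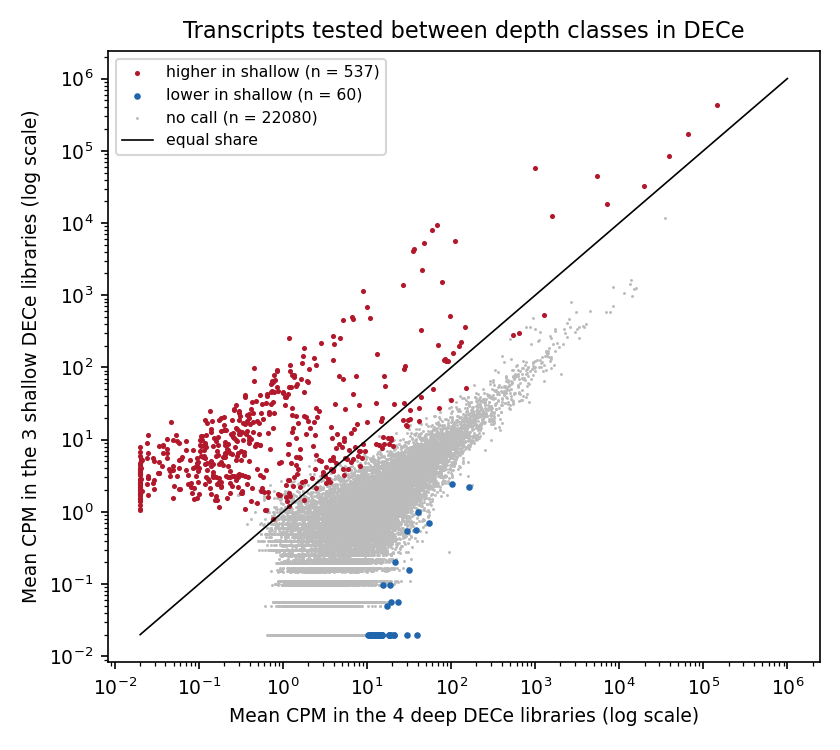
Mean CPM in the 3 shallow DECe libraries (vertical, log scale) against mean CPM in the 4 deep ones (horizontal, log scale) for 22677 tested transcripts, values under 0.02 drawn at 0.02, with the line of equal share. Most transcripts lie below the line, the 537 higher calls (red) lie mostly above it, and the 60 lower calls (blue) lie under the main body.

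Among the transcripts that gained, psme_t002753 (4295 nt) took the largest share of the counts, unadjusted for length. It held 56.5%, 50.6% and 23.7% of the counts in shallow replicates 5, 10 and 15, against 12.5%, 21.1%, 13.5% and 10.7% in deep replicates 2, 3, 4 and 13. All 3 shallow shares lay above the deep ones, with replicate 15 closest to the highest deep share. Its log2 fold change was 5.49 ± 0.73 (SE) under TMM (edgeR adjusted p = 0.000299) and 1.58 ± 0.61 with library totals alone (adjusted p = 0.0282). In the DE and DECe Gas Phase libraries it was 5.47 ± 0.73 under TMM (edgeR adjusted p = 1.34e-11), and 1.48 by library totals, which missed the threshold (adjusted p = 0.0507).

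The second by the same rule, psme_t001906 (4727 nt), held 15.2%, 15.5% and 20.1% of the counts in shallow replicates 5, 10 and 15, against 4.26%, 5.70%, 9.09% and 7.05% in deep replicates 2, 3, 4 and 13. The classes did not overlap, and replicate 15 was here the highest of the 7. The log2 fold change was 4.91 ± 0.57 under TMM (edgeR adjusted p = 0.000101) and 1.37 ± 0.60 by library totals (adjusted p = 0.0454). In the other chambers its share differed in direction. Shallow DE libraries held 112000 to 313300 CPM, against 43630 CPM in the deep DE library. Shallow DECe Gas Phase libraries held 41550 and 71900 CPM, below the 79690 to 103100 CPM of the deep ones. Over both chambers the TMM value was 3.45 ± 0.78 (edgeR adjusted p = 0.000464), and by library totals it was 0.13 (adjusted p = 0.902).

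A pair of short transcripts also took a much larger share in the shallow libraries. A 306 nt transcript, singled out after its values were seen, took 7.83%, 6.50% and 3.24% of the counts in shallow replicates 5, 10 and 15, against 0.235%, 0.0925%, 0.0286% and 0.0365% in deep replicates 2, 3, 4 and 13. Its mean share was 59.6 times as high in the shallow libraries, and its lowest shallow share was over the highest deep share by more than the whole range of the deep class. A 418 nt transcript, singled out likewise, had 125392, 214707 and 277768 counts in shallow replicates 5, 10 and 15, against 148084, 116341, 120952 and 104060 in deep replicates 2, 3, 4 and 13. Its raw counts overlapped between the classes although the deep libraries held more counts in all, and its mean share was 8.36 times as high in the shallow ones.

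Shallow DECe Gas Phase replicate 4 stood apart for both short transcripts. It held 193 CPM of the 306 nt transcript, against 98350 CPM in the other shallow library of its chamber and 43410 to 101800 CPM in the 6 shallow DE libraries. It held 142 CPM of the 418 nt transcript, with 904 counts. In the DE and DECe Gas Phase fit the 306 nt transcript missed the threshold (log2 fold change 8.87 ± 2.74, edgeR adjusted p = 0.123) and passed it without that library (adjusted p = 0.0357), and the 418 nt transcript passed (5.98 ± 1.24, adjusted p = 0.00263).

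Of the transcripts called lower, the pair with the highest level in the deep libraries all but disappeared from the shallow ones. The transcript psme_t023216 (1816 nt) had 15, 10 and 9 counts in shallow replicates 5, 10 and 15, or 2.52, 1.498 and 2.66 CPM, against 216.0, 181.1, 160.8 and 90.4 CPM in deep replicates 2, 3, 4 and 13. Its mean share was 72.7-fold lower in the shallow libraries, and the classes lay far apart. Its log2 fold change was -2.66 ± 0.61 under TMM (edgeR adjusted p = 0.0319) and -6.20 ± 0.89 by library totals (adjusted p = 0.0024). The TMM call ended without replicate 10 (adjusted p = 0.165) or replicate 15 (adjusted p = 0.106).

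The other, psme_t008600 (2957 nt), had 8, 6 and 17 counts in shallow replicates 5, 10 and 15, or 1.35, 0.899 and 5.03 CPM, against 72.8, 125.9, 99.8 and 111.2 CPM in deep replicates 2, 3, 4 and 13. Its mean share was 42.3-fold lower in the shallow libraries. The log2 fold change was -2.45 ± 0.51 under TMM (edgeR adjusted p = 0.0147), and the call ended without replicate 10 (adjusted p = 0.0702) or replicate 15 (adjusted p = 0.0547). Both lower calls also ended with limma-voom (adjusted p = 0.0791 for psme_t023216 and 0.0584 for psme_t008600), and all 4 named calls ended with the class boundary at 15000000 counts. In the DE and DECe Gas Phase libraries neither passed under TMM: psme_t023216 had a log2 fold change of -0.07 ± 0.84 (edgeR adjusted p = 0.985) and psme_t008600 one of -0.67 ± 0.66 (adjusted p = 0.725). By library totals both were lower there, by -3.44 (adjusted p = 0.0015) and -4.09 (adjusted p = 9.02e-05), a smaller fall for the first than the -4.09 median of all 16447 transcripts tested in those libraries.

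The list called higher under TMM ran over all levels, and its median length rose with level. Under a mean of 1 CPM in the deep libraries, 337 of 982 tested transcripts were called higher. Their median length was 543 nt, and together they held 0.351% of the shallow counts, against 0.00799% of the deep counts. A transcript this rare in the deep libraries can enter the test through the shallow ones alone. Among those of the 982 with counts in the deep libraries, 378 had a higher mean share in the shallow libraries and 591 a lower one. Their median ratio of shares, shallow over deep, was 0.489. At the other end, 8 of the 73 tested transcripts with 1000 CPM or more in the deep libraries were called higher. Their median length was 4256 nt, and they held 79.9% of the shallow counts, against 28.4% of the deep ones. Of those 73, 66 had a lower share in the shallow libraries, 1 of the 8 among them. Between these levels, 133 of 13778 tested transcripts were called higher at 1 to 10 CPM (median length 948 nt). At 10 to 100 CPM it was 50 of 7054 (1587 nt), and at 100 to 1000 CPM 9 of 790 (2303 nt). By mean share, 22 of the 133, 22 of the 50 and 3 of the 9 were lower in the shallow libraries. From the lowest level to the highest, the median length of all tested transcripts was 1130, 2092, 2219, 2020 and 1545 nt. Of the 60 lower calls, 58 were among the 7054 at 10 to 100 CPM in the deep libraries. The other 2 were among the 790 at 100 to 1000 CPM.

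The share of transcripts called higher fell with length. In DECe, 186 of 895 tested transcripts under 500 nt were higher (20.8%), 180 of 1975 from 500 to under 1000 nt (9.11%), 87 of 7588 from 1000 to under 2000 nt (1.15%) and 84 of 12219 at 2000 nt or more (0.687%). The higher list had a median length of 625 nt, the lower list 2018 nt, and all tested transcripts 2105 nt. In the DE and DECe Gas Phase libraries the order was the same, with 145 of 525 (27.6%), 170 of 1173 (14.5%), 97 of 5509 (1.76%) and 118 of 9240 (1.28%).

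Both ends of the length range held more of the counts in the shallow libraries. Transcripts under 500 nt took 13.98%, 15.1% and 17.1% of the counts in shallow replicates 5, 10 and 15, against 3.39%, 2.38%, 2.29% and 3.34% in deep replicates 2, 3, 4 and 13. Those of 2000 nt or more took 81.3%, 79.0% and 66.7% in the shallow libraries, against 53.9%, 62.2%, 57.2% and 48.1% in the deep ones. The range between held less, least so in replicates 5 and 10. Transcripts from 1000 to under 2000 nt held 3.68%, 4.59% and 13.2% of the shallow counts, against 30.7%, 26.7%, 29.3% and 33.7% of the deep counts. Those from 500 to under 1000 nt held 1.005%, 1.22% and 3.07%, against 11.95%, 8.70%, 11.1% and 14.9%. The classes overlapped in none of these ranges. Single transcripts carried much of both ends: in replicate 5 the 306 nt transcript held 7.83% of all counts and psme_t002753 held 56.5%, while 0.687% of tested transcripts of 2000 nt or more were called higher.

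Mean transcript length per count was 3969, 3978 and 3654 nt in shallow replicates 5, 10 and 15, against 2782, 3187, 3127 and 2600 nt in deep replicates 2, 3, 4 and 13. Without the 10 most abundant transcripts of each library the order turned round, at 1764, 1691 and 1887 nt in the shallow libraries, against 2431, 2436, 2469 and 2108 nt in the deep ones. The longer mean was thus carried by the 10 most abundant transcripts. In other chambers, transcripts under 500 nt took 13.3% to 25.4% of counts in shallow DE libraries against 1.69% in the deep one. They took 15.6% in shallow DECe Gas Phase replicate 5 but 0.301% in shallow replicate 4, against 2.58% to 4.27% in the deep libraries of that chamber.

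**Figure D4:**
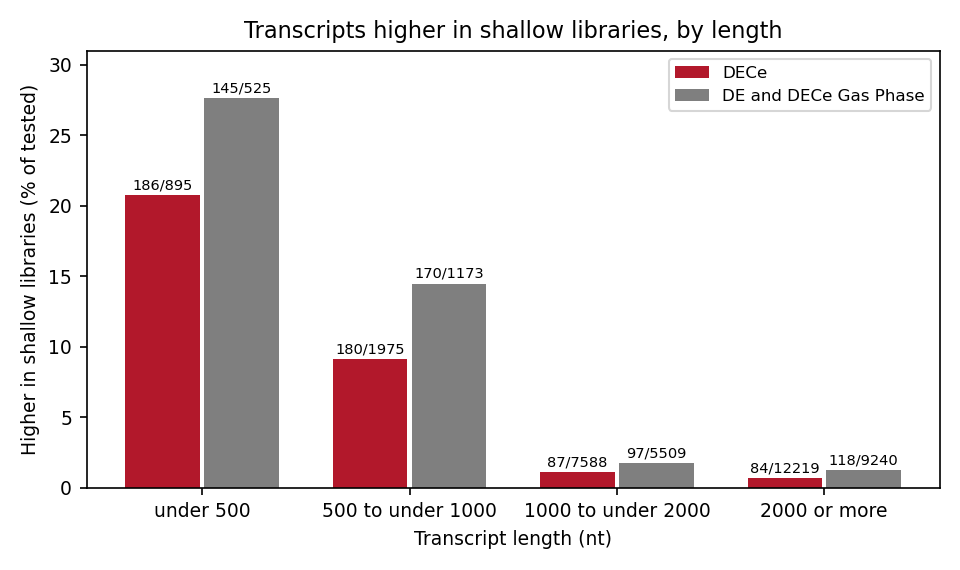
Transcripts called higher in shallow libraries (% of those tested) by transcript length (nt), for DECe (red) and for DE and DECe Gas Phase (grey), with called over tested above each bar. The share is 20.8% and 27.6% under 500 nt and 0.687% and 1.28% at 2000 nt or more. Transcripts rare in the deep class can enter either test through the shallow class, and in DECe these were shorter than the tested transcripts as a whole.

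Part of the list called higher in the shallow DECe libraries was also called in the other chambers. In the 13 DE and DECe Gas Phase libraries, with chamber as a term, edgeR called 530 of 16447 transcripts higher (3.22%) and 225 lower (1.37%) in the shallow class under TMM. By library totals alone 470 were higher (2.86%) and 15560 lower (94.6%). Of the 537 DECe transcripts, 488 could be tested there. Both fits called 285 of them higher, which is 53.1% of the DECe list and 53.8% of the other. Of the 537, 275 were at 0 in the single deep DE library. A transcript that passes the filter through the shallow class alone can hardly differ in the other direction, so the sign of these values supports nothing. The 285 calls made in both fits are subject to the same selection and only describe how far the lists overlap. Without DECe Gas Phase replicate 4 that fit called 732 higher (4.49%) and 750 lower (4.60%) of 16295, and 405 of the DECe list were called in both (75.4% and 55.3% of the 2 lists). The held-out counts of higher calls were 315, 297 and 263 without DE replicate 4, DE replicate 8 and DECe Gas Phase replicate 5, and the calls in both were 180, 173 and 110. Without DECe Gas Phase replicate 3, 439 were called in both.

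Under TMM, edgeR called none of the losses in the other chambers. Of the 60 DECe transcripts called lower, 59 were tested in the other chambers, 51 had a negative log2 fold change (72.1% of all tested were negative) and 0 were called, with 5 at an unadjusted p under 0.05. Other methods made their own lists in DECe and in the other chambers, of unlike sizes. DESeq2 called 13 lower in both (lists of 430 and 342) and limma-voom 0 (27 and 3). The fit over all 26 libraries called 81 (1205 and 612), and edgeR with library totals alone 13380 (18559 and 15560). Without DECe Gas Phase replicate 4 edgeR under TMM called 3 of the 60, which is 5% of the DECe list and 0.4% of the other, and without DE replicate 6 it called 1. The 225 lower calls were 750 without DECe Gas Phase replicate 4, 397 without DE replicate 12, and 134, 130 and 135 without DE replicate 4, DE replicate 8 and DECe Gas Phase replicate 5.

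**Figure D5:**
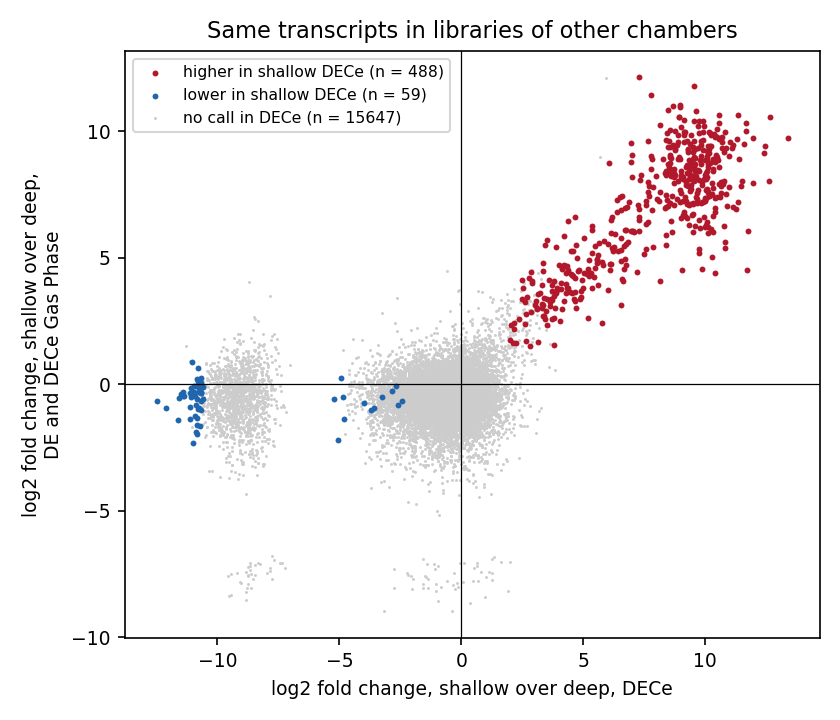
Log2 fold change, shallow over deep, in DE and DECe Gas Phase (vertical) against that in DECe (horizontal), from edgeR fits with TMM that share no library. The 488 transcripts higher in shallow DECe that could be tested (red) lie above 0 on the vertical axis, a sign that the filter fixes for those near 0 in the deep class, and the 59 lower ones (blue) lie around it, 51 below and 8 above. Where a transcript is at 0 in a class, as 47 of the lower ones are in shallow DECe, the fitted size depends on the prior count.

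Shares by library totals, within each chamber, showed the same contrast between the lists. For the 537 transcripts higher in DECe the median ratio of mean shares, shallow over deep, was 31.8 in DECe, 43.2 in DE and 6.72 in DECe Gas Phase, with a class at 0 set to 3 counts over its summed total. In DE 275 of them were at 0 in the single deep library, so the DE median is in part a bound. The same ratio over all 22677 tested transcripts was 0.0969 in DECe, 0.0244 in DE and 0.139 in DECe Gas Phase. For the 60 lower transcripts it was 0.0146 in DECe, 0.0186 in DE and 0.117 in DECe Gas Phase, and all 60 had a lower mean share in the shallow class of each chamber. So did 22075 of 22677 transcripts in DECe, 22064 of 22645 counted in DE and 22075 of 22674 counted in DECe Gas Phase, so that direction says little about the list. As 47 of the 60 were at 0 in every shallow DECe library, the DECe median is an upper bound set by the 3 counts. In DE and DECe Gas Phase these ratios stood close to those of all tested transcripts. The DECe ratios of both lists describe values that the lists were chosen by.

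A list made without the DECe libraries also separated their classes by its share of counts. The 530 transcripts called higher in the other chambers took 84.5%, 82.9% and 71.8% of the counts in shallow DECe replicates 5, 10 and 15, against 28.1%, 34.2%, 32.5% and 24.7% in deep replicates 2, 3, 4 and 13. In raw counts these transcripts overlapped between the classes, with 5021211, 5532274 and 2429602 in the shallow libraries against 5785248, 20659891, 9611744 and 3062064 in the deep ones. A few members carried most of the share. In both lists, psme_t002753 averaged 436000 CPM in shallow and 144400 CPM in deep DECe libraries, and psme_t001906 averaged 169600 and 65250 CPM. The DECe list averaged 91.5% of shallow DECe counts, and its 8 members at 1000 CPM or more in the deep libraries made up 79.9 percentage points of that. The 537 transcripts of the DECe list took 93.7% to 99.1% of counts in shallow DE libraries and 28.8% in the deep one, and 83.6% and 94.5% in shallow DECe Gas Phase libraries against 26.4% to 39.0% in the deep ones. In Air Control, all deep, they took 16.9% to 31.3% in 5 libraries and 72.7% in replicate 14.

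Shallow libraries resembled each other across exposures in part. On log2(CPM + 1) over 22677 transcripts, Pearson's r was 0.847 between shallow replicates 5 and 10, and 0.7101 and 0.7041 between these and replicate 15. Between shallow and deep DECe libraries it was 0.553 to 0.600 for replicates 5 and 10, and 0.694 to 0.736 for replicate 15. Deep DECe libraries correlated at 0.835 to 0.945 with each other. Replicate 5 averaged 0.836 with the 6 shallow DE libraries and replicate 10 averaged 0.790, so both lay nearer to seedlings of another chamber than to the deep libraries of their own. Replicate 15 averaged 0.605 with the shallow DE libraries, below its values with the deep DECe libraries. With the 2 shallow DECe Gas Phase libraries, replicate 5 gave 0.626 and 0.824, replicate 10 gave 0.618 and 0.797, and replicate 15 gave 0.706 and 0.724. For the deep DECe libraries the higher of these 2 values was 0.782 to 0.845. Replicate 15 averaged 0.733 with the deep DECe Gas Phase libraries. Libraries of a class share depth and composition, so these values are given as a description.

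The depth-class effect was compared directly between DECe and DECe Gas Phase in 1 model of all 26 libraries. At an adjusted p under 0.05, edgeR called 0 of 38874 transcripts different (0% of those tested), with 4199 at an unadjusted p under 0.05. Without DECe Gas Phase replicate 4 it called 141. The DECe Gas Phase side of this comparison rests on 2 shallow libraries that differed from each other. The 0 calls therefore do not show that the effects were alike in both chambers. No other tool was run on this difference.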

How the data were processed

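Poly(A) RNA libraries of 26 seedlings were analysed from 2 deposited tables. The count table holds raw whole-number counts per transcript, per the file headers, and the deposited RPKM table holds reads per kilobase and 1000000 counts, per the file headers. Counts divided by RPKM gave each transcript's length (within 0.0159% at RPKM of 10 or more). RPKM was used for nothing else. CASAVA 1.8.2 is listed in the submitters' processing notes. The sources used here name no aligner, counter, reference or strand setting, so near-identical transcripts may share reads. Groups came from the source labels and depth classes from column totals (2467403 to 60457187 counts).

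CPM are counts per 1000000 of the library total. Tests used edgeR 4.0.16 (R 4.3.3): filterByExpr by depth class (minimum count 10), TMM, trended dispersions and robust quasi-likelihood F tests, with Benjamini-Hochberg adjustment over all transcripts tested, for DECe with depth class, and for DE and DECe Gas Phase with chamber and depth class. Each SE is the log2 fold change over the square root of F. Library measures were tested by exact permutation within chambers. Equal-depth numbers are expected values under sampling without replacement. Steps were tested on simulated data. A boundary at 15000000 counts, other scalings, filters, DESeq2 1.42.0, limma-voom (limma 3.58.1) and leaving out each library were alternatives. Intervals and floors (3 counts) cover counting error only.

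Named transcripts are the 2 higher and 2 lower of highest median CPM in the class where they are higher, among those with an adjusted p under 0.05 and at least a 4-fold difference in DECe. The libraries, lists and tests were chosen with earlier results of these data known.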

Additional observations from a re-analysis of the deposited data

Results flagged for a closer look

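In 8 of 36 groups of values examined, 1 library lay farther from the rest than Dixon's test allows at 95%, and chance alone marks about 1 in 20 groups. DE replicate 5 gave 6 of these, as the only deep library of its chamber. It had 28990156 counts, against 2467403 to 9017951 in the other 6 DE libraries. It detected 35046 transcripts at equal depth (35050 rounded), against 4422 to 15959. Its effective number of transcripts was 739.3, against 5.05 to 12.97. Its 10 most abundant transcripts took 35.8% of counts, against 89.2% to 95.4%. It held 38.3 CPM of psme_t023216, against 0 to 9.86 CPM, and 111.8 CPM of psme_t008600, against 0 to 6.16 CPM.

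Among the 4 deep DECe libraries, the 10 most abundant transcripts took 32.9% of counts in replicate 13, the one with the fewest counts, against 39.4% to 40.5% in the other 3. In DECe Gas Phase, mean transcript length per count was 6445 nt in replicate 4, a shallow library, against 2774 to 3713 nt in the other 5.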

How the results depend on the processing

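Scaling, filter, tool and class boundary moved the counts of calls, which are out of unlike numbers of transcripts tested. In DECe 22677 were tested, but 69966 with no filter, 16008 at a mean of 50, 14208 thinned and 38874 over 26 libraries. In DE and DECe Gas Phase 16447 were tested, but 76180 with no filter, 11857 at a mean of 50, 8644 thinned, 18860 at 15000000, 38874 over 26 libraries and 22869 with Air Control added. DECe transcripts called higher (537) numbered 1467 with no filter, 211 at a mean of at least 50 counts, 830 by DESeq2, 321 thinned to equal depth, 72 with the boundary at 15000000 counts and 1430 in 1 fit over all 26 libraries. Those called lower (60) numbered 18 by median-of-ratios size factors, 18559 by library totals, 294 with no filter, 9 at a mean of 50, 430 by DESeq2, 27 by limma-voom, 184 at 15000000 and 1205 over 26 libraries. In DE and DECe Gas Phase, higher calls (530) numbered 1608 with no filter, 149 at a mean of 50, 222 by limma-voom, 347 thinned, 1021 over 26 libraries and 324 with Air Control added. Lower calls (225) numbered 15560 by library totals, 551 with no filter, 55 at a mean of 50, 342 by DESeq2, 3 by limma-voom, 114 thinned, 63 at 15000000 and 612 over 26 libraries. Higher calls in both (285) numbered 979 with no filter, 104 at a mean of 50, 511 by DESeq2, 126 by limma-voom, 432 in a fit that was not robust, 33 at 15000000 and 844 over 26 libraries. Lower calls in both (0) numbered 13380 by library totals, 4 with no filter, 13 by DESeq2, 1 thinned and 81 over 26 libraries. The difference of the DECe and DECe Gas Phase effects had 79 calls with no filter, out of 93782 tested. The 15000000 boundary moves DECe replicate 13 and DECe Gas Phase replicate 10 to the shallow class. The causes of these shifts were not tested.

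With the number in the title as a replicate block, the DE and DECe Gas Phase fit called 415 higher and 0 lower (710 at an unadjusted p under 0.05, 1 residual degree of freedom). The labels tie these numbers to no shared seedling or batch. Deviations from chamber means of libraries with equal numbers correlated at -0.47, 0.18 and -0.76, and in no pair was the DE library most like its own number.

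Leaving out each library in turn gave 398 to 855 higher and 10 to 103 lower calls in DECe, 263 to 765 and 130 to 750 in DE and DECe Gas Phase, 110 to 439 and 0 to 3 in both, and 0 to 141 for the difference of effects. The DECe differences were -21070 to -18840 transcripts at equal depth, -619.2 to -539.7 in effective number, 47.7 to 54.0 percentage points in the 10 most abundant and 835.3 to 1050.0 nt in mean length. In DE and DECe Gas Phase they were -23830 to -16330, -587.0 to -422.8, 46.7 to 53.4 and 720.6 to 2129 nt (exact permutation p of 0.0111 to 0.0667). At 15000000 the DECe differences were -15630 transcripts, -349.1, 34.5 points and 518.4 nt. They were -16790 transcripts at 1000000 counts, -28.8 by the inverse Simpson index and 42.1 points for the 50 most abundant. Mean length reversed without the 10 most abundant, to -580.2 nt in DECe and -371.5 nt in the others (exact permutation p = 0.162).

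Alternatives added after seeing the data were a minimum of 10 or 200 CPM, which gave median dilutions of 32.0- and 29.7-fold in replicate 5, 25.7- and 19.4-fold in replicate 10 and 5.49- and 4.58-fold in replicate 15, and other held-out lists, whose mean share in shallow DECe libraries was 79.7% as reported, 74.99% by median of ratios and 90.1% without DECe Gas Phase replicate 4. All 4 named transcripts kept their direction in every alternative run. At 15000000 none passed (edgeR adjusted p of 0.123 to 0.709). The transcript psme_t002753 also missed the threshold with no filter (edgeR adjusted p = 0.0868), and psme_t023216 by median of ratios (0.0653), at a mean of 50 (0.0735) and in the fit that was not robust (0.0504). After dilution, 830 transcripts were still expected at 20 counts or more in each shallow DECe library.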
